A study of Mus musculus with 24 samples.

Results

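The 9 genes described here are transcription factors that mark or specify the trophoblast lineage, the embryo-derived cells that build the placenta: Cdx2, Tead4, Elf5, Esrrb, Tfap2c, Gata2, Gata3, Ascl2 and Hand1. They were taken by gene name, with no threshold on their values, from the 55401 genes of the count table, in which all 9 were found; the list was drawn up with earlier results of these data known. Bulk RNA-seq of polyA RNA was made from the mouse maternal-fetal interface (MFI), a tissue that holds placental trophoblast beside maternal decidua, at 4 stages of gestation from gd10.5 over gd14.5 and gd16.5 to gd19.5, counted from a vaginal plug at 0.5. WT mice were compared with C1qtnf6-KO mice, which are homozygous for a CRISPR-Cas9 deletion of 3 exons of C1qtnf6 (the gene of the secreted protein CTRP6), with 3 libraries for each of the 8 groups and 24 in all. WT and KO mice were both on the C57BL/6 background with no treatment named, and the KO mice came from 1 commercial strain. The labels name no dam, litter, fetal sex or collection date, so the p-values measure the spread between these libraries, part of which may be technical.

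Trophectoderm is the first lineage set apart in the mouse embryo. Tead4 acts upstream of Cdx2 there with the coactivator Yap1, and Gata3 works beside Cdx2. Cdx2, Elf5, Esrrb, Tfap2c and Eomes maintain trophoblast stem cells, which FGF4 and activin or Nodal signals keep undifferentiated. Ascl2, a basic helix-loop-helix factor, keeps the spongiotrophoblast progenitors of the ectoplacental cone, whereas Hand1, of the same class, drives the differentiation of trophoblast giant cells, and Gata2 and Gata3 regulate placental lactogen and other hormone genes there.

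Total counts per library lay between 20975717 and 37383108, and a count of 3 in a library was taken as the limit of detection. C1qtnf6 itself, the check on the labels, was lower in every KO library than in every WT library of its stage, with log2 fold changes of -7.42, -8.17, -6.45 and -7.00 from the earliest stage to the last. The keratins used here as trophoblast markers (Krt7, Krt8, Krt18 and Krt19) summed to between 2418 and 3598 CPM in all groups. CPM are counts per 1000000 counts, scaled by TMM, the trimmed mean of M-values. The 5 yolk sac endoderm markers, of a fetal membrane beside the placenta, summed to over 1000 CPM in 7 libraries, which were WT gd10.5 replicate 1 (3640), all 3 KO gd10.5 libraries (1199 to 3586), WT gd16.5 replicate 1 (7487) and KO gd16.5 replicates 1 and 2 (7163 and 19929); the other libraries held 14.2 to 278. KO gd10.5 replicate 2 also had 11529 CPM of spongiotrophoblast and glycogen cell markers against 887 and 1129 in its group mates, and the lowest mean correlation with them of all libraries (r = 0.964 over genes). Decidual stroma markers summed to 6660 to 14240 CPM in WT at gd10.5 and 2895 to 3161 at gd14.5, and to 2663 to 12473 and 2744 to 3599 in KO. T cell markers were near 0 in every group (1.01 to 2.16 CPM).

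For 6 of the 9 genes, RefSeq (GRCm38.p6) lists at least 1 start with the sequence before it in the table used here; Tead4, Tfap2c and Hand1 have no entry. The 250 bases before the start are shown for the 4 genes that passed a change of over 2-fold between stages, with matches to short motifs of the factor families of these 9 genes in capitals. The motifs searched on both strands were GATAA (GATA factors), GGAATG (TEAD factors), GCCNNNGGC (AP-2 factors, the family of Tfap2c), CANNTG (basic helix-loop-helix factors, such as Ascl2 and Hand1), AAGGTCA (estrogen-related receptors, the family of Esrrb), TTTATG (CDX factors) and GGAAG (ETS factors, the family of Elf5).
Elf5, chr2:103423818-103424067, plus strand: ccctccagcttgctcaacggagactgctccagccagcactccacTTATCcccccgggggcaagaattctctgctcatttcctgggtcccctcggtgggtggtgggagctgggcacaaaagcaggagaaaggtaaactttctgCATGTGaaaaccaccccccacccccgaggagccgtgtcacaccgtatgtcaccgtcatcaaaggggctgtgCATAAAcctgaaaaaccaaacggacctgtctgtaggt
Esrrb, chr12:86360867-86361116, plus strand: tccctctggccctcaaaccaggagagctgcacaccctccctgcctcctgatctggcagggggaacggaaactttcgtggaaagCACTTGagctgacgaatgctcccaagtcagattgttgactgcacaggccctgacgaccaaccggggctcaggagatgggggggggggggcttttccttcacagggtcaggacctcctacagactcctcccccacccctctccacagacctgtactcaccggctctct
Ascl2, chr7:142969265-142969514, minus strand: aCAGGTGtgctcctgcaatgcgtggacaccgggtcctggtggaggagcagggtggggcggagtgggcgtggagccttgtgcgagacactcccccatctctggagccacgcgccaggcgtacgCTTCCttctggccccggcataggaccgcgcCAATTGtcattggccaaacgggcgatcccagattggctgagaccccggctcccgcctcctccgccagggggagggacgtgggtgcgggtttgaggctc
Cdx2, chr5:147307250-147307499, minus strand: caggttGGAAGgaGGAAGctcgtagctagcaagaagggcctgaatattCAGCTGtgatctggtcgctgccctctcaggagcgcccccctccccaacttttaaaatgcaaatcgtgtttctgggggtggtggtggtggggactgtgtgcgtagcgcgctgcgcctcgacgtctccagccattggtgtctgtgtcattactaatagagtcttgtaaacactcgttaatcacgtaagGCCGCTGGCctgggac

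The Elf5 window ends at the second of 2 listed starts and held 1 GATA match on the minus strand, 206 bases before the start, 1 helix-loop-helix match at 108 and 1 CDX match on the minus strand at 37. The window of its first start, not shown, held a TEAD match on the minus strand at 173. It also held helix-loop-helix matches at 187, 155, 112 and 11 and an ETS match at 103. Ascl2 had helix-loop-helix matches at 249 and 98 bases and 1 ETS match on the minus strand at 128, Cdx2 had an AP-2 match at 16, a helix-loop-helix match at 202 and ETS matches at 244 and 237, and Esrrb had 1 helix-loop-helix match at 167. Esrrb too has 2 listed starts, and the window of its other start, not shown, held a helix-loop-helix match at 235 and ETS matches on the minus strand at 189 and 109. These letters are common: of 32851 mouse windows of the same length, 66.2% held CANNTG, 64.1% GGAAG, 22.6% GATAA, 13.7% GCCNNNGGC, 12.6% GGAATG, 10.8% TTTATG and 4.08% AAGGTCA. GC content was 56.8% for Elf5, 60.8% for Esrrb, 67.6% for Ascl2 and 55.2% for Cdx2, against a median of 52.4% over all windows, and the windows held 8, 6, 19 and 13 CpG dinucleotides in the same order against a median of 6. A match describes letters and not a bound site.

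In GRCm38, the genes lie on chromosomes 5 (Cdx2, 147300805 to 147307270), 6 (Tead4, 128224288 to 128300823, and Gata2, 88193891 to 88207032), 2 (Elf5, 103411688 to 103450989, Tfap2c, 172549593 to 172558622, and Gata3, 9857078 to 9890034), 12 (Esrrb, 86361117 to 86521628), 7 (Ascl2, 142966829 to 142969264) and 11 (Hand1, 57828705 to 57832818). Reads were counted over exons without regard to strand and reads that overlap several genes were dropped. Gata3 shares 155 exon bases (3.9% of its exon bases) with Gm13256 on the opposite strand and 77 (1.94%) with 9230102O04Rik on its own strand, and Tead4 overlaps Gm21893 on the opposite strand with 0 shared exon bases, so some reads of Gata3 could not be counted.

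The levels spanned a wide range. Per kilobase of exon, WT MFI at gd10.5 held 105 ± 22.9 CPM per kb of Hand1 (SD, n = 3), 47.2 ± 8.87 of Tfap2c, 31.6 ± 2.66 of Tead4, 31.2 ± 3.03 of Gata2, 13.6 ± 0.668 of Gata3, 8.50 ± 3.38 of Ascl2, 3.74 ± 1.51 of Cdx2, 2.93 ± 0.547 of Esrrb and 0.721 ± 0.174 of Elf5. Tead4 and Gata2 did not differ beyond their spread, and the spreads of Ascl2 and Cdx2, and of Cdx2 and Esrrb, met. At gd19.5 in WT, Hand1 still led with 67.6 ± 4.68 CPM per kb, followed by Tead4 (45.4 ± 3.68) and Tfap2c (42.3 ± 2.54), whose spreads meet, then Gata2 (21.2 ± 1.99), Gata3 (10.2 ± 0.993), Cdx2 (3.49 ± 0.82), Ascl2 (0.847 ± 0.201), Esrrb (0.484 ± 0.0589) and Elf5 (0.0511 ± 0.0164). Cdx2 stood below Ascl2 at the first stage and above it at the last.

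**Figure D1:**
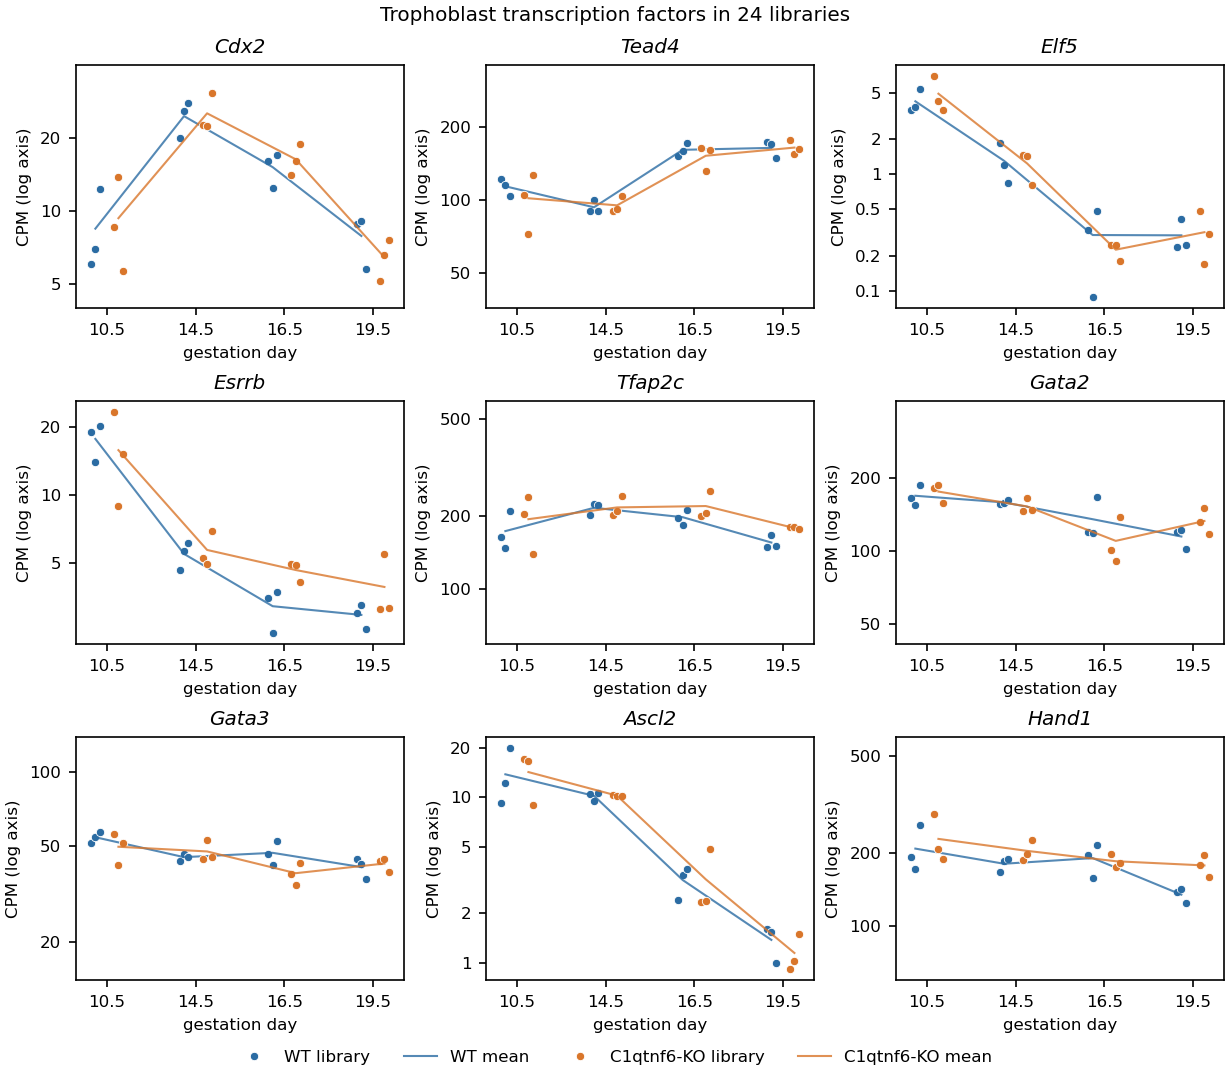
Level of each of the 9 transcription factors in CPM (log axis) at the 4 stages (evenly spaced), with 1 point per library and lines through the group means of WT and KO. Elf5, Esrrb and Ascl2 descend over gestation, Cdx2 peaks at gd14.5 near 25 CPM, Tead4 is higher at gd16.5 and gd19.5 than before, and the WT and KO points lie among each other in most panels.

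Over gestation, all 9 genes differed between stages in WT (edgeR quasi-likelihood F test over 12 libraries, adjusted p 9.43e-08 for Esrrb to 0.0104 for Tfap2c), where 72.5% of all tested genes did. In KO, 6 of 9 differed, namely Cdx2, Tead4, Elf5, Esrrb, Gata2 and Ascl2, where 65.1% of all genes did; Gata3 (adjusted p = 0.0671), Hand1 (0.153) and Tfap2c (0.326) did not pass. Hand1 did not pass in WT without WT gd19.5 replicate 3 (adjusted p = 0.0533). In KO, Gata3 passed without gd10.5 replicate 2 (0.00838) and Hand1 without gd10.5 replicate 3 (0.0487), and both passed with library totals as the scaling (0.00205 and 0.00817). From the stage with the highest to that with the lowest mean, Elf5 ranged 14.1-fold in WT and 21.8-fold in KO, Ascl2 10.03-fold and 12.4-fold, Esrrb 6.06-fold and 4.06-fold and Cdx2 3.11-fold and 3.92-fold. The other 5 genes ranged by 1.23-fold to 1.76-fold in either genotype. In bulk tissue, fewer cells of a type and less RNA per cell cannot be told apart, and this holds for every change below.

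Elf5, an ETS factor that reinforces Cdx2 and Eomes in trophoblast stem cells, fell at both of the first steps. Its level was 3.55, 3.75 and 5.42 CPM in the 3 WT libraries of gd10.5 and 6.95, 4.23 and 3.60 in KO, and at gd14.5 it was 1.87, 1.22 and 0.842 in WT and 1.48, 1.44 and 0.804 in KO. At gd16.5 the WT libraries held 8, 2 and 10 counts and the KO libraries 5, 8 and 4, and at gd19.5 6, 11 and 6 counts and 11, 5 and 9, so that 1 late library was under the limit of 3 counts. No library of gd10.5 overlapped one of gd14.5, and no library of gd14.5 one of gd16.5, in either genotype. From gd10.5 to gd14.5 the log2 fold change was -1.65 (SE 0.338, adjusted p = 0.00109) in WT and -1.97 (SE 0.330, adjusted p = 0.00092) in KO. From gd14.5 to gd16.5 it was -2.14 (SE 0.444, adjusted p = 0.00446) in WT and -2.44 (SE 0.430, adjusted p = 0.00401) in KO. These adjusted p-values and those that follow for stages come from the edgeR quasi-likelihood test on the 12 libraries of a genotype.

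Esrrb, an orphan nuclear receptor of the stem cell network, had 19.1, 14.0 and 20.1 CPM in WT at gd10.5 and 4.66, 5.64 and 6.10 at gd14.5. The KO libraries held 23.3, 8.91 and 15.2 CPM and then 5.23, 4.92 and 6.93, with the lowest gd10.5 value in replicate 2, the library rich in spongiotrophoblast markers. All gd10.5 libraries stood above all of gd14.5, and the log2 fold change was -1.69 in WT (SE 0.178, adjusted p = 5.1e-06) and -1.48 in KO (SE 0.321, adjusted p = 0.00362). At gd16.5 Esrrb was at 3.47, 2.43 and 3.70 CPM in WT, a further log2 fold change of -0.76 (SE 0.190, adjusted p = 0.0121) that is under 2-fold, and at 4.93, 4.87 and 4.11 CPM in KO, where the step from gd14.5 did not pass (adjusted p = 0.589).

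Cdx2, the homeobox factor of trophectoderm, went the other way at first. It had 6.06, 6.97 and 12.4 CPM in WT at gd10.5 and 20.01, 25.8 and 27.9 at gd14.5, and 8.59, 13.8 and 5.64 and then 22.7, 22.3 and 30.7 CPM in KO. Every gd14.5 library was above every gd10.5 library of its genotype, with log2 fold changes of 1.55 in WT (SE 0.247, adjusted p = 0.000158) and 1.43 in KO (SE 0.275, adjusted p = 0.00191). It then stood at 15.997, 12.5 and 17.0 CPM in WT and 14.1, 16.02 and 18.8 in KO at gd16.5, and at 8.80, 9.11 and 5.76 and 5.16, 6.62 and 7.56 at gd19.5. The last step was -1.34 on the log2 scale in KO (SE 0.280, adjusted p = 0.0474), a call that was lost when any of the 6 libraries was left out (adjusted p 0.0739 to 0.203), with the replicate number as a block (0.104), under limma voom (0.0694) and with the yolk sac markers as a covariate (0.0786). In WT the same step was -0.93 (SE 0.250, adjusted p = 0.0401), just under 2-fold.

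Tead4, the TEA-domain factor upstream of Cdx2, was at 122, 115 and 103 CPM in WT at gd10.5 and 89.9, 99.8 and 89.5 at gd14.5, then 151, 158 and 172 and last, at gd19.5, 173, 169 and 148. KO libraries held 105, 72.3 and 127, then 89.6, 91.5 and 103, then 163, 132 and 160, then 177, 154 and 161 CPM. All libraries of the later pair of stages stood above all of gd14.5, and the log2 fold change from gd14.5 to gd16.5 was 0.79 in WT (SE 0.0863, adjusted p = 6.48e-05) and 0.68 in KO (SE 0.169, adjusted p = 0.0197), under the 2-fold threshold of a call. This was the step at which Elf5 and Ascl2 fell.

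Ascl2, which is imprinted and expressed from the maternal allele, had 9.22, 12.3 and 19.9 CPM in WT at gd10.5 and 10.48, 9.51 and 10.7 at gd14.5, and the libraries of both stages overlapped. In KO the values were 17.2, 16.6 and 8.96 and then 10.3, 10.2 and 10.3 CPM. It then fell to 2.40, 3.40 and 3.70 CPM in WT and 2.34, 2.37 and 4.88 in KO at gd16.5, below all gd14.5 libraries, with log2 fold changes of -1.69 (SE 0.261, adjusted p = 0.000643) and -1.68 (SE 0.315, adjusted p = 0.00544). At gd19.5 it was at 1.59, 1.53 and 1.00 CPM in WT and 0.918, 1.02 and 1.499 in KO. The last step was -1.19 in WT (SE 0.296, adjusted p = 0.0301) and -1.46 in KO (SE 0.349, adjusted p = 0.0641), all gd19.5 libraries being below all of gd16.5. The WT call was lost without any 1 of 5 of its 6 libraries (adjusted p 0.0578 to 0.132), under limma voom (0.0528) and in a fit of all 24 libraries. The KO step passed with library totals (0.0452), without the expression filter (0.0109) and under DESeq2 (0.00233). It also passed in a fit of all 24 libraries (0.0187) and with the yolk sac markers as a covariate (0.0273). Leaving out the yolk sac libraries rests the KO step on 1 gd16.5 library, the one with the highest Ascl2 level (4.88 CPM).

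Hand1 stood at 173, 193 and 260 CPM in the WT libraries of gd10.5 from the lowest to the highest, then at 168, 186 and 189, then at 158, 197 and 217 and last, at gd19.5, at 124, 138 and 142. In KO it was at 188, 208 and 290, then 188, 199 and 227, then 175, 182 and 199, then 159, 179 and 196 CPM. No step between neighbouring stages passed in either genotype, the closest being gd19.5 against gd16.5 in WT (log2 fold change -0.49, SE 0.142, adjusted p = 0.0522), where all 3 later libraries were below all 3 earlier ones. With Ascl2 falling and Hand1 near level, the mean log2 ratio of Hand1 to Ascl2 went from 3.97 ± 0.365 (SD, n = 3) in WT at gd10.5 to 4.14 ± 0.145, 5.92 ± 0.413 and 6.62 ± 0.268 at the later stages, and from 4.04 ± 0.372 to 4.31 ± 0.142, 5.93 ± 0.632 and 7.28 ± 0.492 in KO.

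Tfap2c, an AP-2 factor shared by trophectoderm and its descendants, ranged from 147 to 210 CPM in WT at the earliest stage, then from 202 to 225, 184 to 213 and last 149 to 166. Gata2 ranged from 154 to 186, 155 to 162, 118 to 166 and 102 to 122 CPM at the same stages, and Gata3 from 51.3 to 56.6, 43.2 to 46.2, 41.6 to 52.3 and 36.4 to 44.1. Of these, Tfap2c rose from gd10.5 to gd14.5 by 0.32 (SE 0.113, adjusted p = 0.0267, libraries overlapping) and Gata3 fell by 0.27 (SE 0.088, adjusted p = 0.0205, no overlap) on the log2 scale in WT, and Gata2 fell by 0.47 (SE 0.148, adjusted p = 0.0495) from gd14.5 to gd16.5 in KO. Tead4 also fell by 0.28 (SE 0.0859, adjusted p = 0.0136) from gd10.5 to gd14.5 in WT. All 4 changes were under 2-fold.

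**Figure D2:**
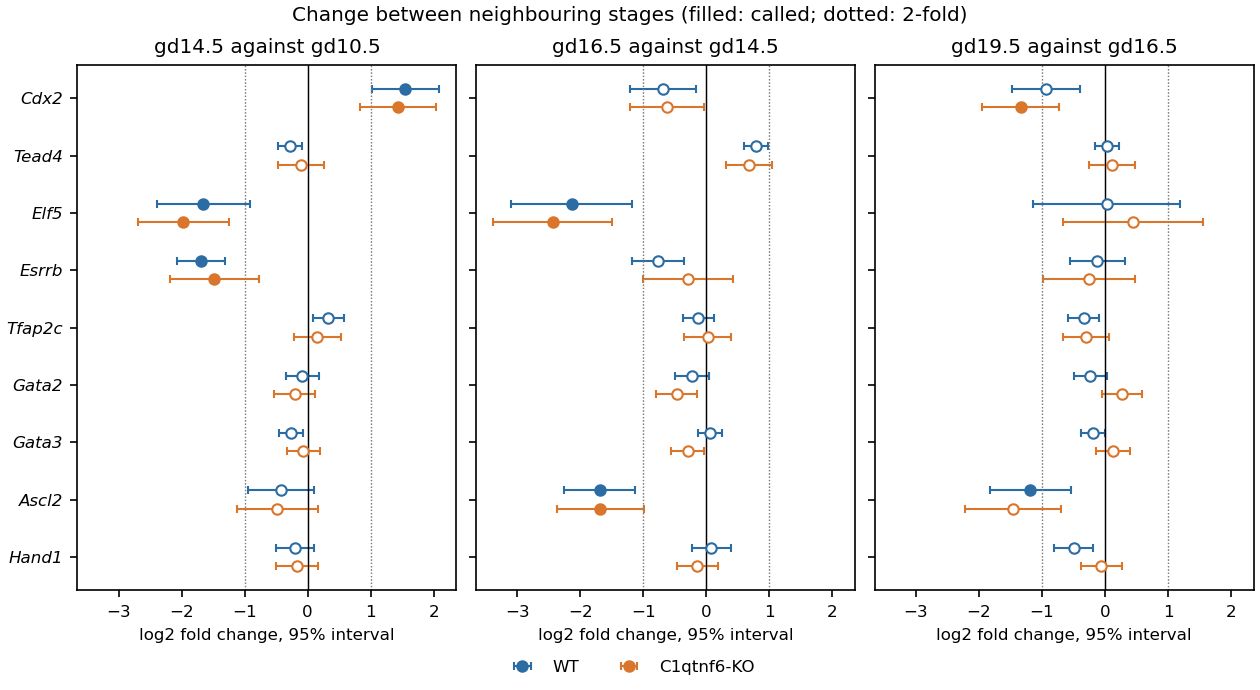
Log2 fold change of each gene between neighbouring stages in WT and KO, with 95% intervals as bars; filled points passed an adjusted p under 0.05 and a fold over 2. Cdx2 is to the right of 0 and Elf5 and Esrrb to the left at the first step, Elf5 and Ascl2 are to the left at the second, and Ascl2 (WT) and Cdx2 (KO) at the third.

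Counted over the group, 1 gene was higher and 2 were lower by over 2-fold at gd14.5 than at gd10.5 in both genotypes, against 10.7% of all tested genes higher and 11.6% lower in WT and 8.53% and 10.2% in KO. At any fold, 6 of 9 passed in WT and 3 of 9 in KO, against 55.9% and 46.2% of all genes. From gd14.5 to gd16.5, 0 were higher and 2 were lower in both genotypes, against 3.04% higher and 2.55% lower of all genes in WT and 4.78% and 2.76% in KO, and 4 of 9 passed at any fold in each (22.4% and 17.5% of all genes). From gd16.5 to gd19.5, 0 were higher and 1 was lower in each genotype, against 1.2% and 0.939% of all genes in WT and 0.255% and 0.439% in KO; at any fold 2 passed in WT and 1 in KO (7.97% and 1.24% of all genes). Groups of neighbouring stages did not overlap for 63.5%, 41.4% and 30.2% of all genes at the 3 steps in WT and 52.9%, 44.4% and 30.5% in KO. Median log2 fold changes of the 9 genes were -0.27, -0.23 and -0.23 at the 3 steps in WT and -0.17, -0.30 and -0.06 in KO, while those of all tested genes lay between -0.0113 and -0.00149.

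Markers of other cell types moved at the same steps. From gd10.5 to gd14.5 in WT, 6 of 6 decidual stroma markers and 5 of 5 NK cell markers fell by over 2-fold and 5 of 6 spongiotrophoblast and glycogen cell markers rose, their sum going from 1461 to 2200 CPM to 25861 to 27643 CPM, while 0 of 4 keratins passed 2-fold. In KO, 5 of 5 yolk sac endoderm markers fell at this step and 5 of 5 rose at the next. The part of these shifts in the changes of the 9 genes was not tested, except for the yolk sac. Leaving out the libraries over 1000 CPM of its markers gave 3 calls among the 9 genes in WT at gd14.5 against gd10.5. It gave 2 in WT at gd16.5 against gd14.5, both as with all libraries. In KO this leaves 1 library at gd16.5 and none at gd10.5, so no count is given there. With the log2 sum of these markers as a covariate, 1 gene (Ascl2) was called at the first step in KO and 0 at the second. The log2 fold changes kept their signs and were then 1.04 for Cdx2, -1.76 for Elf5 and -1.14 for Esrrb at the first step and -2.67 for Elf5 and -0.82 for Ascl2 at the second. That sum was high in all KO libraries of gd10.5 and low in all of gd14.5, so its level and the stage cannot be told apart there.

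Loss of C1qtnf6 was compared next, to ask whether trophoblast regulators change in the KO. None of the 9 genes was called at any stage: 0 of 9 at gd10.5 and gd14.5 and 0 of 8 at gd16.5 and gd19.5, where Elf5 was too low to test, against 0.00572%, 0.0166%, 0.00586% and 0.023% of all tested genes (C1qtnf6 among them). DESeq2 and limma voom also called 0. At an unadjusted p under 0.05 there were 0, 0, 2 and 2 genes at the 4 stages, where 0.801%, 6.78%, 11.1% and 13.5% of all tested genes were. Log2 fold changes lay between -0.16 (Esrrb) and 0.22 (Elf5) at gd10.5 and between -0.10 (Elf5) and 0.17 (Hand1) at gd14.5. The later ranges were -0.28 (Gata2) and 0.55 (Esrrb) at gd16.5, and -0.31 (Cdx2) and 0.39 (Esrrb) at gd19.5. The 95% intervals of the log2 fold change lay within ±1 for 8 of 9, 9 of 9, 7 of 8 and 8 of 8 genes in stage order, the exceptions being Cdx2 at gd10.5 (up to 1.09) and Esrrb at gd16.5 (up to 1.01).

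The clearest difference was in Hand1 at gd19.5. The WT libraries held 138, 142 and 124 CPM and the KO libraries 179, 196 and 159, so that every KO library was above every WT library, and 21.4% of all tested genes had no overlap between the genotypes at this stage. The log2 fold change was 0.37 (SE 0.0847, 95% interval 0.18 to 0.56), with an unadjusted p of 0.00145 and an adjusted p of 0.145 in the edgeR test of all genes. The adjusted p fell to 0.000348 without the expression filter, 0.00901 under DESeq2 and 0.0402 with the replicate number as a block, and was 0.561 in a fit of all 24 libraries and 0.196 to 0.326 with each library left out in turn; the fold was under 2 in each. All 4 trophoblast keratins had positive log2 fold changes at this stage (median 0.10), and the sums of 4 of 13 marker lists did not overlap. Keratins were at 2691 to 3150 CPM in KO and 2576 to 2672 in WT, smooth muscle markers at 158 to 244 and 111 to 142, macrophage markers at 960 to 999 and 802 to 913, and decidual stroma markers at 2243 to 2625 and 2777 to 4056. Their part in the Hand1 difference was not tested. The log2 fold change of Hand1 at gd16.5 was -0.03.

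At gd16.5, Esrrb was higher in every KO library (4.93, 4.87 and 4.11 CPM) than in every WT library (3.47, 2.43 and 3.70), with a log2 fold change of 0.55 (SE 0.197, 95% interval 0.09 to 1.01, adjusted p = 0.431), at a stage where 17.7% of all tested genes had no overlap. Gata3 was at 38.4, 34.5 and 42.5 CPM in KO and 46.0, 41.6 and 52.3 in WT, overlapping in 1 pair of libraries, with a log2 fold change of -0.27 (SE 0.113, adjusted p = 0.449). Tfap2c at gd19.5 was at 180, 180 and 176 CPM in KO and 149, 166 and 151 in WT, a log2 fold change of 0.17 (SE 0.0627, adjusted p = 0.296) with no overlap. The sums of 6 of 13 marker lists did not overlap at gd16.5. Giant cell markers summed to 36572 to 42952 CPM in KO and 25163 to 35636 in WT, spongiotrophoblast and glycogen cell markers to 38327 to 41325 and 24413 to 31801, and keratins to 2810 to 2934 and 2565 to 2775. In the second of these sums, Tpbpa had means of 29059 CPM in KO and 20700 in WT. Pcdh12 of the same list was at 132 and 137 CPM, with libraries overlapping. Lower in KO were syncytiotrophoblast markers (382 to 589 against 598 to 703 CPM), smooth muscle markers (102 to 108 against 131 to 165) and uterine epithelium markers (242 to 268 against 273 to 336). Their part in the Esrrb and Gata3 differences was not tested. The yolk sac markers differed between the gd16.5 libraries (79.7 to 7487 CPM in WT and 154 to 19929 in KO), and without the 3 libraries over 1000 CPM, which leaves 1 KO library that is taken to vary like WT, the log2 fold changes were 0.44 (Esrrb, adjusted p = 0.9999) and -0.13 (Gata3, adjusted p = 0.9999). None of the 3 differences passed the correction.

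**Figure D3:**
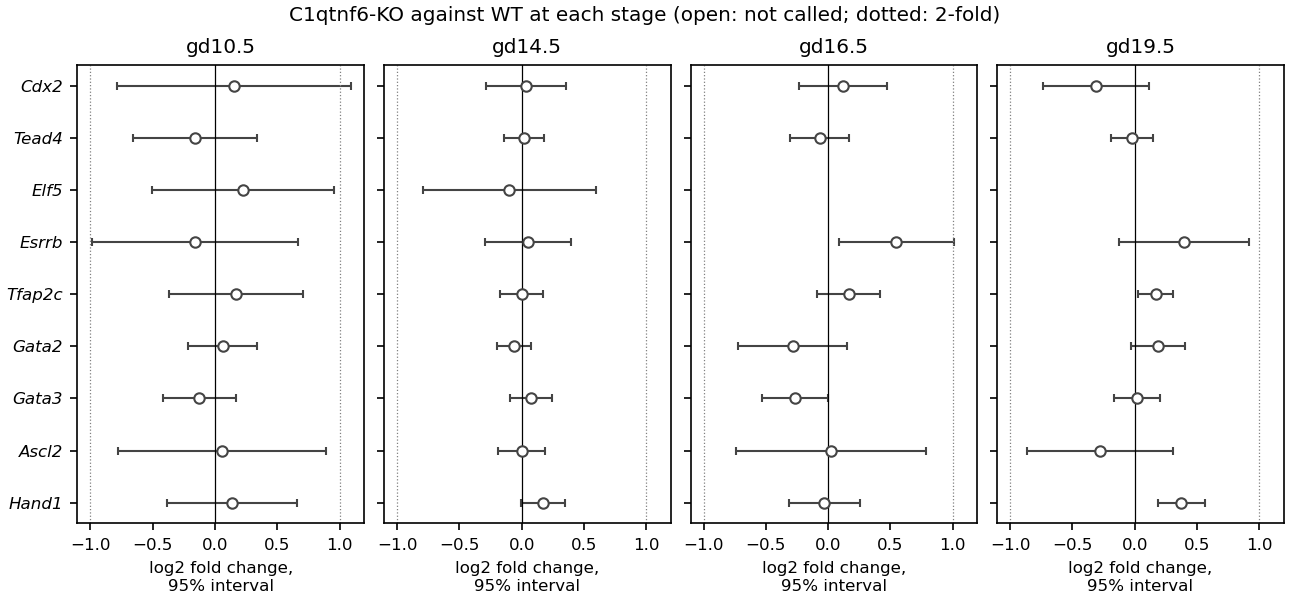
Log2 fold change of KO against WT for each gene at each stage, with 95% intervals as bars and open points for differences that were not called. All points are open, and the intervals of Hand1 and Tfap2c at gd19.5 and Esrrb at gd16.5 lie above 0 and that of Gata3 at gd16.5 below it.

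With all stages in 1 model, 0 of 9 genes were called for genotype (0.0107% of all genes), with log2 fold changes from -0.07 (Gata3) to 0.19 (Esrrb) and all 9 intervals within ±1, the widest bounds being -0.40 (Elf5) and 0.48 (Esrrb). Hand1 was the single gene with an unadjusted p under 0.05 (log2 fold change 0.17, SE 0.0794, adjusted p = 0.785), where 6.31% of all genes had one. The genotype effect did not differ between stages for any of the 9 genes by the interaction test (adjusted p 0.738 to 0.979, with 0% of all genes called), and 0 of 9 had an unadjusted p under 0.05, against 7.23% of all genes, and DESeq2 gave 0 of 9 as well.

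Across the 24 libraries, several of the genes varied together. Log2 CPM of Elf5 went with Esrrb (Pearson r = 0.869), Ascl2 (0.830) and Gata2 (0.775), and against Tead4 (-0.718), and Ascl2 and Tead4 had r = -0.840. With the 8 group means removed, r of Elf5 with Esrrb was 0.115, with Ascl2 0.133, with Gata2 0.223 and with Tead4 -0.00957, and r of Ascl2 with Tead4 was -0.234. Elf5 had 2 to 11 counts in the libraries of the last 2 stages. Other pairs varied together within groups too: r was 0.802 and 0.840 for Cdx2 and Tfap2c before and after removal, 0.795 and 0.622 for Gata2 and Gata3, and 0.681 and 0.741 for Esrrb and Hand1. On the log scale, Cdx2 and Tfap2c spread widest within the gd10.5 groups, from 5.64 to 13.8 and 139 to 240 CPM in KO. The libraries share tissue, depth scaling and cell makeup, and these values are descriptions over 24 points.

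**Figure D4:**
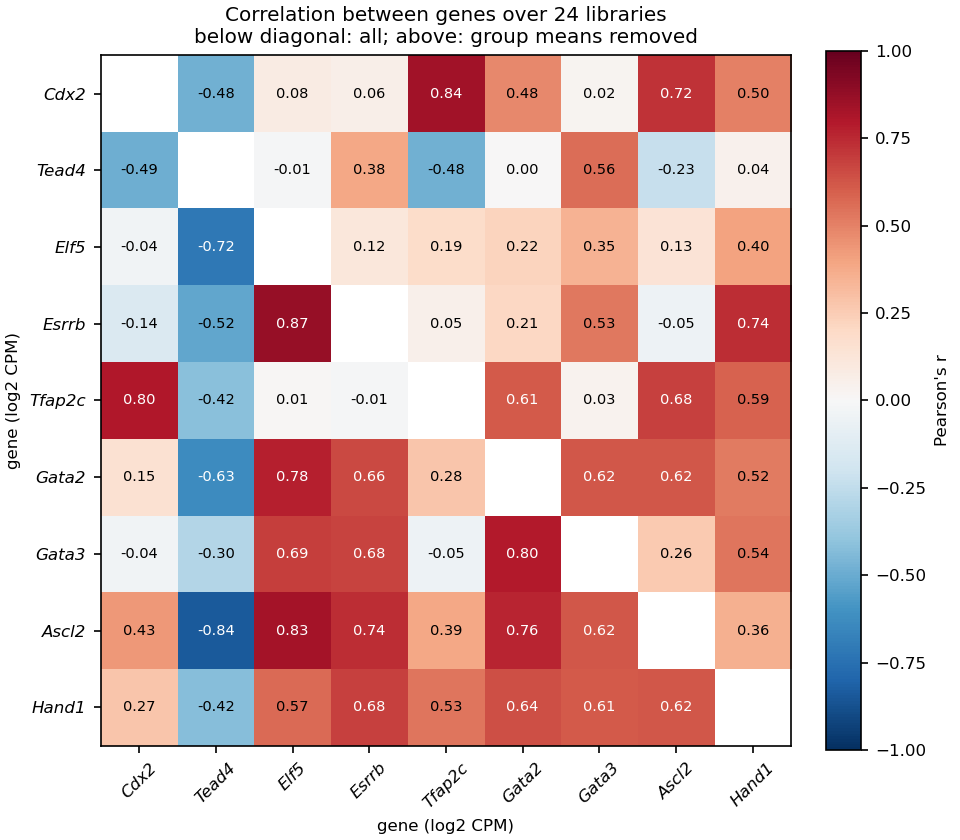
Pearson correlation of log2 CPM between the 9 genes, over the 24 libraries below the diagonal and with the 8 group means removed above it. Elf5, Esrrb, Gata2 and Ascl2 go together below the diagonal, Tead4 goes against them, and Cdx2 with Tfap2c is high on both sides.

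Among 14902 other and member genes of at least moderate level, those most like each factor over the 24 libraries were mostly not transcription factors. Cdx2 was most like Pla2g4e (r = 0.972), Fbxo27 (0.965) and Pla2g4d (0.953), and Tead4 like Zswim4 (0.963), H6pd (0.961) and Abca1 (0.961). Elf5 was most like Bub1b (0.972), Ccnb1-ps (0.969) and Pola1 (0.966), of which Bub1b and Pola1 encode a mitotic checkpoint kinase and a DNA polymerase subunit, and Esrrb like Septin11 (0.972), Stk10 (0.970) and Ptprs (0.970). Ascl2 was most like Srms (0.982), Palm (0.981) and Upp1 (0.973), and Hand1 like Sfmbt2 (0.907), an imprinted Polycomb gene of the placenta, Ywhaz (0.891) and Snrnp200 (0.876). Tfap2c had Adcy7 (0.883), Rcor1 (0.882) and Cgnl1 (0.878), Gata2 had Smarca4 (0.955), Usp5 (0.934) and Prrc2a (0.930), and Gata3 had Ctdspl (0.920), Lamb2 (0.916) and Lamc1 (0.903). With group means removed, r for the first of each 3 was between 0.589 (Elf5 with Bub1b) and 0.912 (Gata2 with Smarca4).

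The other trophoblast transcription factors moved in both directions. Of 12 tested from a list of 13 (Sox2 was too low), 5 rose and 2 fell by over 2-fold from gd10.5 to gd14.5 in WT, against 10.7% and 11.6% of all tested genes. Eomes, the T-box partner of Elf5 and Cdx2 in stem cells, went from 33.2 to 4.17 CPM (log2 fold change -3.00, SE 0.195, adjusted p = 1e-07), and Klf5 from 50.1 to 22.7 CPM (-1.13). The 5 that rose were Gcm1, the inducer of syncytiotrophoblast, from 6.81 to 30.2 CPM (2.16), Cited1 from 48.8 to 280 (2.53), Ovol2 from 5.91 to 18.2 (1.64), Dlx3 from 33.2 to 88.7 (1.43) and Pparg from 105 to 272 (1.38). From gd14.5 to gd16.5 Eomes fell again (-1.36) with Sox15 (-2.01), a partner of Hand1 in giant cells, and Gcm1 fell from 30.1 to 7.13 CPM at gd19.5 (-2.07). In KO, 4 rose and 2 fell at the first step, against 8.53% and 10.2% of all genes, and 2 fell at the next, while 0 passed at the last.

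Of 15 partners and inhibitors, all tested, 1 rose and 1 fell by over 2-fold at the first step in each genotype, against the shares of all genes just given. Vgll1, a cofactor of TEAD factors, fell from 14.6 to 4.85 CPM in WT (log2 fold change -1.58) and from 13.3 to 4.38 in KO (-1.61) at the first step, and Id4, an inhibitor of helix-loop-helix factors, rose in WT (1.40) from a low 0.671 CPM. In KO Zfpm1, a cofactor of GATA factors, rose there (1.08). Of the 9 signal genes 7 were tested, Fgf4 and Nodal being too low. Inhba, an activin subunit, rose from 66.7 to 327 CPM in WT and 91.8 to 411 in KO, and Pcsk6, a protease that processes such ligands, fell from 106 to 45.9 and 89.1 to 43.4 CPM. Bmp4 rose at gd16.5, from 3.72 to 14.7 CPM in WT (1.98) and 3.67 to 15.8 in KO (2.10).

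Of the 19 paralogs 14 were tested, and 6 rose and 2 fell at the first step in WT, where 10.7% of all genes rose and 11.6% fell. Cdx1 went with Cdx2, from 0.912 to 4.59 CPM (log2 fold change 2.35), Tfap2a from 4.52 to 11.2 (1.32) and Gata1, of red cells, from 3.78 to 10.2 (1.46). Hand2, the paralog of Hand1 that is made in decidual stroma, fell from 152 to 34.7 CPM (-2.13). Of 6 known target genes of these factors, 1 rose and 3 fell at this step, beside the same shares of all genes: Prl3d1, a placental lactogen gene of giant cells, fell from 1590 to 17.9 CPM (-6.47), Prl2c2 and Eomes fell by 2.42 and 3.00 on the log2 scale, and Tpbpa, the spongiotrophoblast marker, rose from 1510 to 20460 CPM (3.77). Prl2c2 has near-identical copies, and reads that fit several copies were not counted, so its level is uncertain. The 6 giant cell markers, which include Prl3d1 and Prl2c2, went the other way as a sum in WT. They summed to 7992 to 9686 CPM at gd10.5 and to 17777 to 18997 CPM at gd14.5. None of the genes of the 5 lists of other factors, partners and inhibitors, signals, paralogs and targets was called between KO and WT at any stage. At gd16.5 some still did not overlap between the genotypes, as did 17.7% of all tested genes. Among them, Prl3d1 was higher in KO by 1.36 on the log2 scale (edgeR quasi-likelihood test, adjusted p = 0.334). Prl2c2 (0.64) and Tpbpa (0.50) were also higher, and Cdh1 (-0.35) and Gcm1 (-0.96) were lower. The target genes summed to 28410 to 31863 CPM in KO and 17363 to 24386 in WT.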

How the data were processed

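RNA-seq reads of the 24 MFI libraries were processed by the study's authors, who trimmed them with Trim Galore 0.6.4, aligned them to GRCm38 with STAR 2.7.3a and counted them per gene with featureCounts of Subread 2.0.0 at default settings. The authors deposited raw gene read counts, with no normalization. Default counting ignores strand and drops reads with several places or genes, although the kit keeps strand.

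Here, genes were kept by edgeR 4.0.16 (R 4.3.3) where enough libraries reached about 10 counts and the total reached 15, scaled by TMM, and tested by quasi-likelihood. KO was compared with WT within each stage (6 libraries), over all stages with stage as a covariate, and for an interaction (24 libraries), and neighbouring stages were compared within each genotype (12 libraries). The cutoffs were a Benjamini-Hochberg adjusted p under 0.05 over all genes tested and an absolute log2 fold change over 1, and the F tests used the adjusted p alone. CPM used TMM factors over 24 libraries. Correlations used log2 CPM with a prior count of 2, over genes with a mean log2 CPM over 0, and the 3 genes most like each factor were named by rule. The edgeR scripts were tested on simulated data. Promoter windows came from RefSeq (GRCm38.p6).

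The members and the gene lists were chosen with earlier results of these data known. DESeq2 1.42.0, limma 3.58.1 (voom), other normalizations, filters, a replicate block and leaving out each library were alternatives; the 2 yolk sac alternatives were added after seeing the data. KO libraries carry the replicate numbers of their descriptions, which differ from those of their titles.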

Additional observations from a re-analysis of the deposited data

How the results depend on the processing

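Of 272 recomputed counts of called members (14 counts under the alternatives), 244 stayed within 1.5 times the value given and 28 moved, and of 503 recomputed single fold changes (31 in all, of those with an unadjusted p under 0.05), 474 kept their direction and side of the threshold, 21 lost and 8 gained a call, and 0 reversed. All counts of KO against WT and of the interaction stayed at 0. With no fold threshold, gd14.5 against gd10.5 in WT gave 6, gd16.5 against gd14.5 gave 4 in WT and 4 in KO, and gd19.5 against gd16.5 in WT gave 2. With at least 10 counts in every library, which leaves Elf5 untested, gd16.5 against gd14.5 gave 1 in each genotype. For gd19.5 against gd16.5 in WT, limma voom and the fit of 24 libraries gave 0, leaving out 1 library gave 0 to 1, and the yolk sac covariate gave 2. For the same step in KO, library totals, no expression filter, DESeq2 and the fit of 24 libraries each gave 2, and limma voom gave 0, as did every library left out (0 to 0). The yolk sac covariate gave 1 in KO at gd14.5 and 0 at gd16.5. Counts over any stage ran from 8 to 9 in WT and from 5 to 8 in KO. The causes were not tested. The labels do not say whether the replicate numbers pair the samples. Deviations of same-numbered WT and KO libraries correlated with r between -0.455 and 0.406, over 0.1 in 5 of 12 pairs. With 3 libraries per group, these values cannot decide it. The replicate block gave 0 for gd19.5 against gd16.5 in KO. Leaving out the yolk sac libraries could not be run where KO gd10.5 is needed, and it left 1 KO library at gd16.5. Library totals shifted the median log2 fold change of all genes by up to -0.221 in KO (gd16.5 against gd14.5) and -0.161 in WT. Over all genes, KO against WT had 1, 3, 1 and 4 calls at the 4 stages, 1, 44, 50 and 82 with no filter and 2, 4, 44 and 19 with DESeq2, and gd19.5 against gd16.5 in KO had 128 against 12 with the block and 464 with DESeq2. At 2 to 11 counts per library, Elf5 at the later stages is limited by depth.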
